A study of Mus musculus with 12 samples.

Results

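The Golgi glycosyltransferases described here build and cap mucin-type O-glycans and related chains. They are the protein-coding genes of the Galnt, Gcnt, B3gnt, B4galt, Fut, St3gal, St6gal, St6galnac and St8sia families, with C1galt1 and C1galt1c1, chosen by symbol alone and not by any measured value. Of 39179 gene IDs in the table, 69 met this rule, and 53 of those reached a normalized value of 4 on the log2 scale in 6 or more libraries, the filter used for testing. RNA came from prostates of mice aged 4 months, on a hybrid background of 129/SvImJ and C57Bl/6J, that were all treated with paraquat, a herbicide used to raise superoxide and oxidative stress. There were 6 libraries labelled +/+ (wild type) and 6 labelled -/- (null for the gene under study), and no untreated mice among the libraries used here. How the null allele was made, and whether each library is a separate mouse, the labels do not say.

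Secreted and surface proteins of glandular epithelium carry sugar chains that are assembled stepwise in the Golgi. The GALNT enzymes initiate mucin-type O-glycosylation by adding N-acetylgalactosamine to serine or threonine. C1galt1, which needs the chaperone C1galt1c1 (Cosmc) to fold, and the Gcnt enzymes then make the core structures, and B3gnt and B4galt enzymes alternate to extend chains of N-acetyllactosamine. Fucosyltransferases and sialyltransferases finish the chains with fucose or sialic acid, which forms blood group, Lewis and sialylated epitopes. Prostate fluid is rich in such glycoproteins. Several of these families also act on N-glycans, glycolipids and proteoglycans.

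The libraries of each genotype fell into sets of 3 closely similar libraries, libraries 1 to 3 and 4 to 6 (numbered by order of deposit). The median absolute difference over the 53 kept genes was 0.0848 to 0.155 between libraries of a set, 0.227 to 0.394 between sets of 1 genotype and 0.457 to 0.939 between genotypes. Each difference was therefore tested with limma over the 12 libraries and again over the 4 set means, with p adjusted over all 16197 genes tested. Rose and fell are used for genes past an adjusted p of 0.05 in both, and standard errors (SE) are those over set means. All differences are null minus wild type on the log2 scale. Markers of other cell types also differed. The 9 seminal vesicle genes, none of which stayed under 4 in every library, summed to 16.4% to 16.6% of the linear level in null libraries 1 to 3, to 0.717% to 0.729% in null libraries 4 to 6 and to at most 0.00119% in wild type. Most of the sum in null libraries 1 to 3 was Svs2 (null set means 21.03 and 11.37). Without Svs2, null libraries held 0.701% to 4.02%. Svs3a, Svs3b and Svs4 had higher means in null libraries 4 to 6 than in 1 to 3, and the other genes of the list lower ones. The 11 prostate secretory genes summed to 9.35% to 11.1% in wild type and 1.54% to 2.37% in the null, with 9 means lower and 2 higher. Among them, probasin (Pbsn) had means of 18.43 and 11.06, Azgp1 14.50 and 14.38, and Qsox1 10.35 and 15.48. The 11 luminal epithelial genes gave 0.472% to 0.535% and 0.424% to 0.556%. Of 12 leukocyte genes, 11 had a higher mean in the null and Coro1a a lower one (9.09 and 8.97). Their sum was 0.0259% to 0.0377% in wild type and 0.157% to 0.289% in the null, most of it from Cd52 (means 11.02 and 14.85). Without Cd52 it was 0.0183% to 0.0210% and 0.0276% to 0.0463%. Sums were also higher in the null for 8 basal epithelial genes (0.0247% to 0.0276%, then 0.0450% to 0.0598%), 5 adipocyte genes (0.00217% to 0.00377%, then 0.00905% to 0.0141%) and 6 endothelial genes (0.00670% to 0.00762%, then 0.0107% to 0.0160%). Of the basal genes, 6 means were higher in the null and 2 lower, Krt14 (7.88 and 7.29) and Lama3 (9.45 and 8.41). All 5 adipocyte means were higher. Of the endothelial genes, 5 means were higher and Emcn was lower (8.86 and 7.39). For 7 B and plasma cell genes the sums were 0.00618% to 0.0121% and 0.0137% to 0.0251%, but without Jchain 0.00151% to 0.00685% and 0.00242% to 0.00478%. Of these genes, 2 means were higher in the null and 5 lower. The 10 smooth muscle and fibroblast genes gave 0.494% to 0.540% and 0.499% to 0.688%. The part of these markers in the results below was not tested. For the genes picked by the naming rule given below, values without null libraries 1 to 3 are given where the call or sign changed or the value moved by over 1.5 times. They are given for only a few of the other genes described, which can depend on that set as well. Gmds, for example, had null set means of 10.73 and 11.53 beside a wild-type mean of 11.31.

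Fucosyltransferases and the chain-extending enzyme B3gnt7 held the largest losses, and sialyltransferases were mostly higher in the null. Over the 12 libraries, 36 of the 53 genes (67.9%) passed the test, against 65.9% of all genes, so the share called was near the background. The direction was less even: 27 were higher, or 50.9% against 34.1% of all genes, and 9 were lower, or 17.0% against 31.8% of all genes. The higher calls include Galnt14 and St8sia1, which passed the filter mainly through the null. The lower calls include Fut1, which passed it through wild type. Over set means, 6 passed (11.3%, against 4.09% of all genes), of which 1 was higher (background 2.15%) and 5 were lower (background 1.93%). The median difference was 0.35, beside 0.05 for all genes. It was 0.66 beside 0.37 when libraries were scaled to their totals and 0.14 beside -0.04 after quantile normalization. Without null libraries 1 to 3, 21 were higher and 11 lower, with a median of 0.28. Of all 16197 genes, 4360 were then higher and 4413 lower, with a median of 0.02. With the set as a random effect, 12 of the 53 were higher and 7 lower, beside 2285 and 2767 of all genes.

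**Figure D1:**
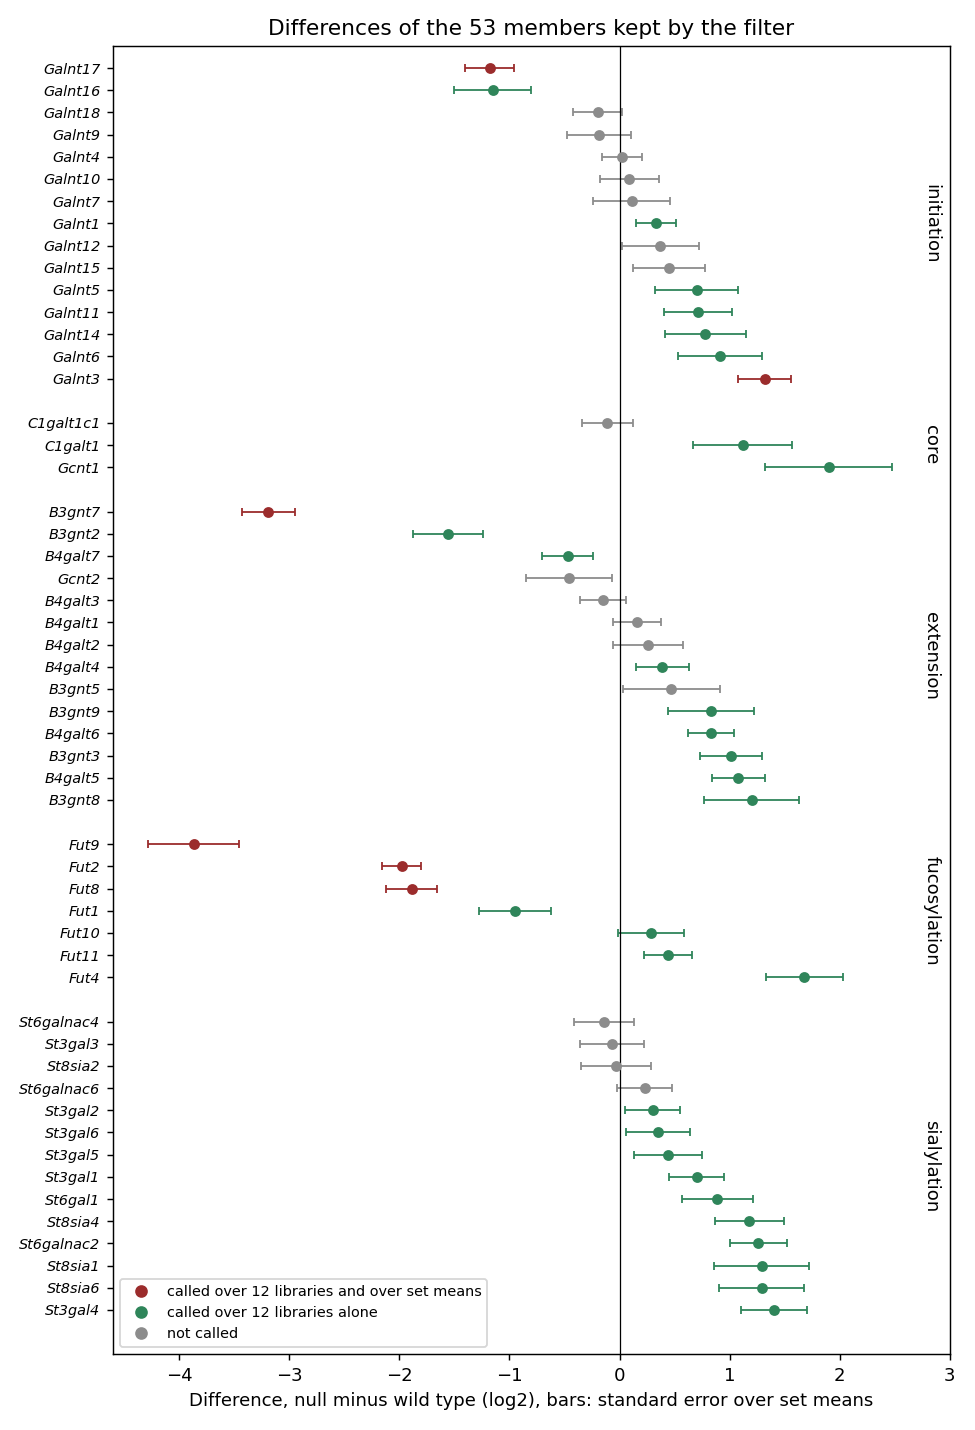
Difference between null and wild type (log2, horizontal axis) for each of the 53 glycosyltransferase genes kept by the filter, grouped by step, with bars of 1 SE over set means; red points passed limma's test over the 12 libraries and over set means, green points over the 12 libraries alone and grey points neither. Fut9 (-3.87) and B3gnt7 (-3.19) lie far to the left, and 11 of the 14 sialyltransferases lie right of 0.

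The 3 most strongly expressed fucosyltransferases of wild type, Fut2, Fut8 and Fut9, all fell, while Fut4 was higher. Fut9, which adds fucose within N-acetyllactosamine to form Lewis x (chr4:25609332-25800244, minus strand, GRCm38), had values of 11.21, 11.36 and 11.44 (lowest, median and highest) in wild type and 6.73, 7.49 and 8.25 in null libraries. The genotypes did not overlap, and the null libraries were split, with means of 6.81 for libraries 1 to 3 and 8.12 for libraries 4 to 6. Fut9 fell by 3.87 (SE 0.41, 14.6-fold; limma adjusted p = 8.52e-08 over 12 libraries and 0.0105 over set means). Without null libraries 1 to 3, the set with the higher seminal vesicle sum, the difference was -3.21.

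Fut2, which adds fucose to terminal galactose and makes the secretor H epitope (chr7:45648591-45666394, minus strand), had values of 11.26, 11.40 and 11.54 in wild type and 9.29, 9.45 and 9.51 in null libraries. All 6 null libraries lay below all wild-type libraries and the null set means were close, at 9.44 and 9.41. Fut2 fell by 1.98 (SE 0.18, 3.95-fold; limma adjusted p = 1.11e-10 and 0.00785). Fut1, a gene of the same function that lies 27531 bases away on chromosome 7, was much weaker, with a median of 4.47 in wild type and 3.47 in null libraries. Its difference of -0.95 passed over the 12 libraries (adjusted p = 0.000699) but not over set means (0.125). Fut1 reached 4 in 6 wild-type libraries and 1 null library, so it passed the filter through wild type.

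Fut8, the enzyme that adds core fucose to N-glycans (chr12:77238125-77476338, plus strand), had values of 11.14, 11.29 and 11.39 in wild type and 9.05, 9.39 and 9.68 in null libraries, again without overlap. It fell by 1.89 (SE 0.23, 3.71-fold; limma adjusted p = 2.48e-08 and 0.0147). Fut4, which like Fut9 can form Lewis x, pointed the other way. Its values were 5.63, 6.13 and 6.52 in wild type and 7.47, 7.87 and 8.04 in null libraries. The difference of 1.68 (SE 0.35) passed over the 12 libraries (adjusted p = 5.27e-06) and missed the threshold over set means (0.0569). Fut10 and Fut11, which resemble the Lewis enzymes in sequence, differed by 0.29 and 0.44 and passed only over the 12 libraries, Fut10 narrowly (adjusted p = 0.0498). Thus all 7 kept fucosyltransferases passed over the 12 libraries, 4 lower and 3 higher, and 3 passed over set means, all lower. The 4 lower include Fut1, which passed the filter through wild type. Over the 12 libraries 57.1% were lower and 42.9% higher, against 31.8% and 34.1% of all genes. Over set means 42.9% passed, against 4.09% of all genes. Under the scalings tried, the count of lower calls over the 12 libraries was 4, and higher calls went from 3 to 2 with quantile normalization and with the length trend removed. With the set as a random effect, 3 were lower and 1 was higher. Without null libraries 1 to 3, 4 were lower and 2 were higher. Fut4 and Fut1 were chosen for naming after their values were seen, as were all genes here without a set-mean call, a largest difference or a highest level in their step.

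Per kilobase of the longest transcript, Fut2 led the fucosyltransferases in both genotypes, at a median of 46.5% of their summed linear level in wild type and 36.6% in null libraries. Fut8 followed with 35.8% and 29.5%. Fut9 made up 11% in wild type (10.1% to 11.5%) and 2.5% in the null (1.29% to 3.98%). Fut11 went from 4.62% to 18.4% and Fut4 from 0.88% to 8.97% beside differences of 0.44 and 1.68 in their own levels. These are shares of transcript, not of enzyme activity.

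**Figure D2:**
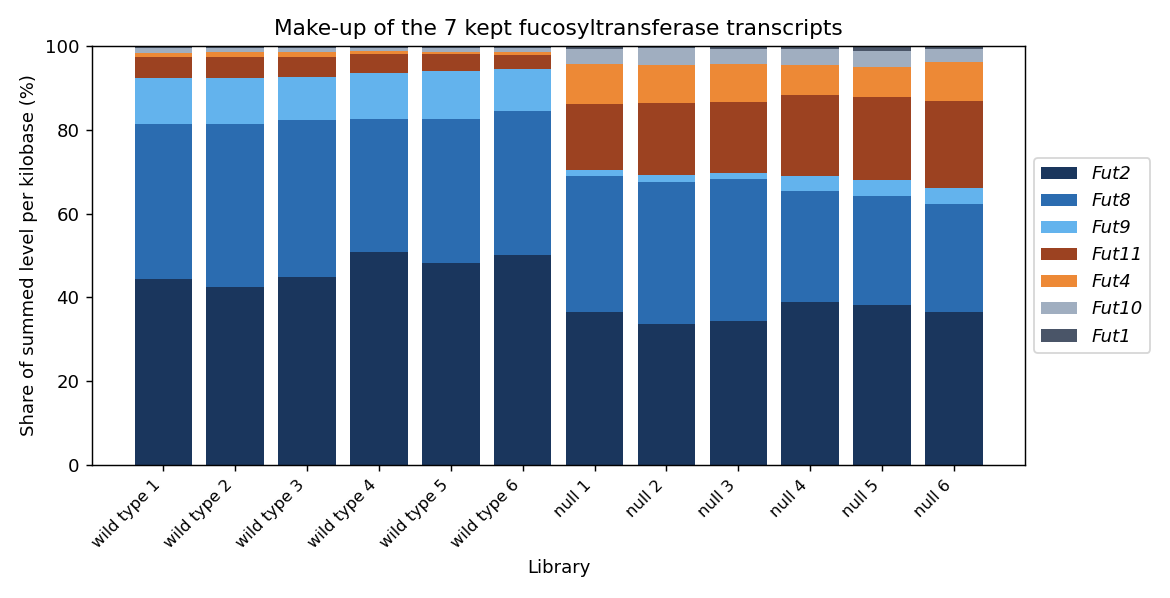
Share of each fucosyltransferase gene in the summed linear level per kilobase (vertical axis, percent) in each of the 12 libraries; every bar sums to 100. The light blue Fut9 band has a median of 11% in wild type and 2.5% in null libraries, where the Fut11 and Fut4 bands are wider.

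Chain extension was marked by the loss of B3gnt7, an enzyme that extends N-acetyllactosamine chains and takes part in keratan sulfate synthesis (chr1:86302832-86307305, plus strand). B3gnt7 had values of 10.93, 11.10 and 11.25 in wild type and 7.60, 7.89 and 8.21 in null libraries. No null library came near a wild-type library. It fell by 3.19 (SE 0.24, 9.16-fold; limma adjusted p = 4.65e-10 and 0.00632), and by 3.45 without null libraries 1 to 3. Its median share of the per-kilobase level of the 14 kept extension genes went from 24.8% to 2.96%. B3gnt2, regarded as the main poly-N-acetyllactosamine synthase, was a low gene with values of 5.45, 5.70 and 6.11 in wild type and 3.78, 4.18 and 4.5 in null libraries. Its difference of -1.56 (SE 0.32) passed over the 12 libraries (adjusted p = 3.5e-06) and just missed over set means (0.0533). The gene overlaps Gm28048 on the same strand, and how such reads were assigned is not stated.

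Of the other extension genes, most had small or positive differences. B4galt4, a galactosyltransferase of the same chains and the highest of the group per kilobase (29.4% in wild type, 39.7% in the null), had values of 10.95, 11.15 and 11.26 in wild type and 11.26, 11.49 and 11.81 in null libraries. Its difference of 0.39 passed over the 12 libraries (adjusted p = 0.0097) but not over set means (0.296), and it was 0.15 (adjusted p = 0.135) without null libraries 4 to 6, 0.26 (0.145) without wild-type libraries 4 to 6 and 0.63 without null libraries 1 to 3. B4galt1, which also forms lactose synthase, gave 0.16 and did not pass (adjusted p = 0.122). B4galt5 and B4galt6, both lactosylceramide synthases, differed by 1.08 and 0.83 without overlap and passed over the 12 libraries alone (adjusted p over set means 0.0641 and 0.0754). B3gnt3, which extends core structures, differed by 1.01 in the same way (set means 0.087).

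B3gnt8 had values of 6.02, 6.21 and 6.32 in wild type and 6.67, 7.39 and 8.11 in null libraries. Its null sets differed by 1.17, and its difference was 1.20 over the 12 libraries (adjusted p = 0.00101; set means 0.13) and 0.62 without null libraries 1 to 3. B3gnt8 overlaps Bckdha on the opposite strand over 5155 bases. Bckdha was far more abundant (mean 12.32 in wild type and 11.22 in null libraries) and lower in the null, and reads from the pair cannot be told apart if strand was not used. B4galt7, which builds the linker of proteoglycans, differed by -0.47 (adjusted p = 0.00193; set means 0.213). Over the 12 libraries, 6 extension genes passed with a positive and 3 with a negative difference, and only B3gnt7 passed over set means. Positive and negative calls were 42.9% and 21.4% of the 14 kept, against 34.1% and 31.8% of all genes. The share called in either direction, 64.3%, was near the 65.9% of all genes.

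Initiation genes moved in both directions, with Galnt3 higher and Galnt17 lower. Galnt3 (chr2:66082766-66124994, minus strand), known for glycosylating the phosphate hormone FGF23, was the 1 gene of all 53 that rose. It had values of 8.00, 8.30 and 8.49 in wild type and 9.25, 9.65 and 9.83 in null libraries, without overlap, and rose by 1.32 (SE 0.24, 2.49-fold; limma adjusted p = 1.15e-06 and 0.0383). Without null library 5 the set-mean value was 1.27 with an adjusted p of 0.0509, so 1 library decided that call. Galnt17 (chr5:130872082-131308497, minus strand) had values of 8.98, 9.23 and 9.37 in wild type and 7.94, 8.00 and 8.18 in null libraries. It fell by 1.18 (SE 0.22, 2.26-fold; limma adjusted p = 1.09e-07 and 0.0422), and wild-type library 6 decided this call over set means (adjusted p = 0.0503 without it). The call also ended when libraries were scaled to their totals (-0.86, adjusted p = 0.0623), when they were centred on the upper quartile (-1.10, 0.0532) and without a filter on low values (-1.18, 0.0501).

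Per kilobase, Galnt3 went from a median of 3.48% of the kept Galnt level to 8.58%, and Galnt17 from 3.22% to 1.32%. The group was led by Galnt18, at 39.7% in wild type and 31.9% in null libraries, followed by Galnt10, at 22.8% and 22.2%. Galnt18, whose own transferase activity is reported as weak, differed by -0.20 and did not pass (adjusted p = 0.11). It lay at 10.75 in null libraries 1 to 3 and 11.23 in null libraries 4 to 6, beside 11.17 and 11.19 in the wild-type sets. Its sign turned to 0.12 when libraries were scaled to their totals, and to 0.04 without null libraries 1 to 3. Galnt16 had values of 6.74, 7.14 and 7.27 in wild type and 5.48, 6.02 and 6.35 in null libraries. Its difference of -1.15 passed over the 12 libraries alone (adjusted p = 8.82e-05; set means 0.101). Galnt1, Galnt5, Galnt6, Galnt11 and Galnt14 were higher over the 12 libraries alone, by 0.33 to 0.91. Galnt14 reached 4 in 2 wild-type and 6 null libraries, so it passed the filter through the null. The initiation genes thus gave 6 higher and 2 lower calls of 15 over the 12 libraries. The 6 higher of 15 stand beside 34.1% of all genes, and the 2 lower (13.3%) beside 31.8%. The share called in either direction, 53.3%, was under the 65.9% of all genes. With the set as a random effect 1 was higher and 2 were lower, beside 2285 and 2767 of all 16197 genes.

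The core step rested on 3 kept genes. Gcnt1, which makes the core 2 branch, had values of 4.88, 5.04 and 5.27 in wild type and 6.01, 7.01 and 7.94 in null libraries. The genotypes did not overlap, but the null sets stood apart at 7.85 and 6.10. The difference of 1.90 (SE 0.58) was the largest positive one of the 53 genes and passed over the 12 libraries (adjusted p = 0.000506) but not over set means (0.102). Without null libraries 1 to 3 it was 1.03 (adjusted p = 0.000232). C1galt1, the core 1 synthase, had values of 6.31, 7.06 and 7.72 in wild type and 7.72, 8.17 and 8.60 in null libraries. Its wild-type sets lay at 7.66 and 6.43, so that the difference of 1.12 (adjusted p = 0.00317; set means 0.155) became 0.50 without wild-type libraries 4 to 6 and 1.74 without wild-type libraries 1 to 3. Without null libraries 1 to 3 it was 0.85 and did not pass (adjusted p = 0.0619), and with the length trend removed it was 0.72. The chaperone C1galt1c1, by far the most abundant of the step per kilobase (95.2% in wild type and 87.1% in null libraries), differed by -0.11 (adjusted p = 0.415). Its sign turned to 0.21 when libraries were scaled to their totals, to 0.18 with the length trend removed and to 0.14 without null libraries 1 to 3.

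Sialyltransferases were higher in the null over the 12 libraries in 10 of 14 kept genes (71.4%, against 34.1% of all genes) and lower in none, and none passed over set means. The 10 include St8sia1, which passed the filter mainly through the null. With the set as a random effect, 4 were higher. The median difference was 0.57, and 7 of the 14 had an unadjusted p under 0.05 over set means. It was 0.88 when libraries were scaled to their totals and 0.33 after quantile normalization, under which 7 genes were higher and 1 lower. Without null libraries 1 to 3, 8 were higher and 1 lower. In bulk tissue, more cells of a type that expresses a gene and more RNA per cell cannot be told apart. Markers of leukocytes, basal epithelium, adipocytes and endothelium also had higher sums in the null, at the values given above. Not every gene of the leukocyte, basal and endothelial lists was higher.

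St3gal4, which caps N-acetyllactosamine and takes part in selectin ligand synthesis, had values of 6.01, 6.16 and 6.30 in wild type and 7.20, 7.60 and 7.82 in null libraries. All null libraries lay above all wild-type libraries. The difference was 1.40 (SE 0.30; adjusted p = 1.02e-06 over the 12 libraries and 0.0592 over set means). St6galnac2, which adds sialic acid to the N-acetylgalactosamine of O-glycans, had values of 6.77, 6.89 and 7.14 in wild type and 7.99, 8.21 and 8.38 in null libraries. It differed by 1.26 (SE 0.26; adjusted p = 5.26e-07 and 0.0543), also without overlap. Both therefore lay just outside the threshold over set means.

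St8sia6, which makes disialyl groups on O-glycans, had values of 3.88, 4.40 and 4.96 in wild type and 5.19, 5.75 and 6.12 in null libraries, a difference of 1.29 (adjusted p = 0.000306; set means 0.101). St8sia4, a polysialyltransferase, differed by 1.18 without overlap (adjusted p = 6.81e-06; set means 0.0813), whereas St8sia2, the other polysialyltransferase, differed by -0.03 (adjusted p = 0.867). St6gal1, which sialylates N-glycans, differed by 0.89, and St3gal1, which caps core 1, by 0.70, both without overlap and over the 12 libraries alone. St8sia1, the GD3 ganglioside synthase, differed by 1.29 with overlapping genotypes and reached 4 in 1 wild-type and 5 null libraries, so it passed the filter mainly through the null. Of these 6 genes, St8sia2 alone did not pass over the 12 libraries. The St8sia6 difference was 0.79 with the length trend removed.

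St3gal3, the highest sialyltransferase per kilobase (31.9% of the group in wild type and 22.9% in null libraries), had values of 8.60, 8.85 and 9.01 in wild type and 8.34, 8.76 and 9.16 in null libraries. Its null sets lay on either side of wild type, at 9.09 and 8.39, and the overall difference of -0.07 did not pass (adjusted p = 0.705). It was -0.42 without null libraries 1 to 3 (adjusted p = 0.00665) and 0.28 without null libraries 4 to 6 (0.0289), so each null set alone passed with an opposite sign. St3gal4 and St6galnac2 took larger shares of the group, from 6.01% to 12.4% and from 5.89% to 10.6%.

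**Figure D3:**
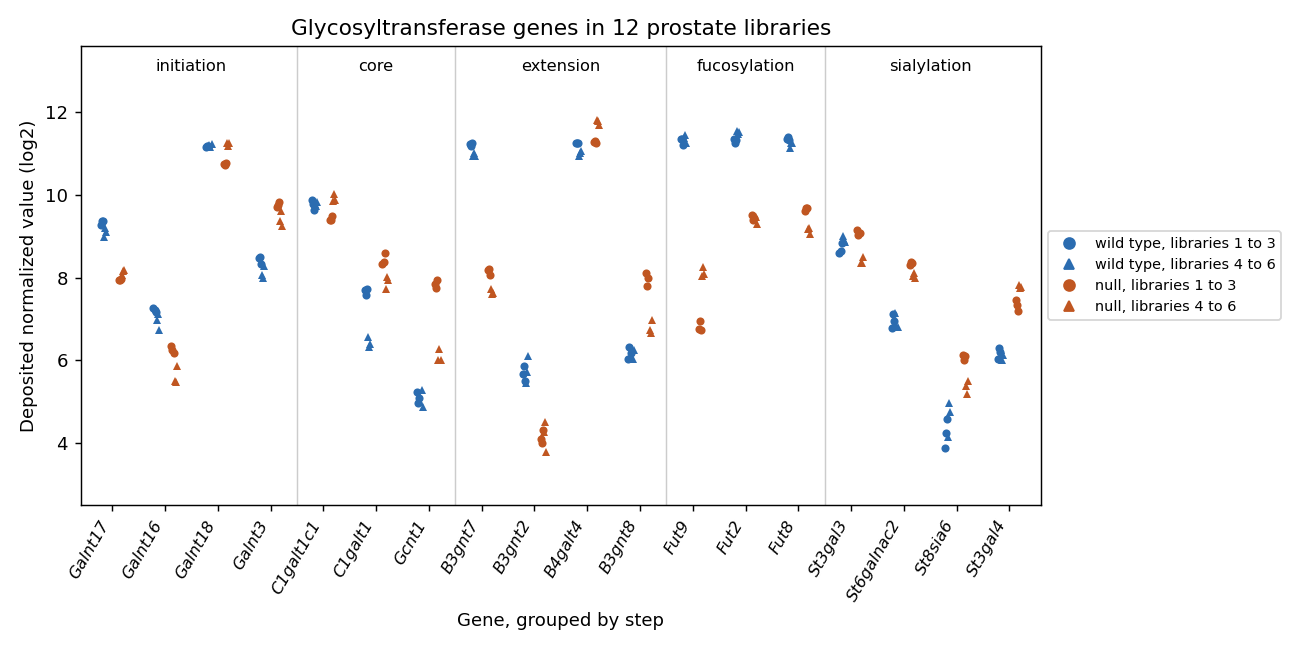
Normalized log2 value (vertical axis) of 18 glycosyltransferase genes in each of the 12 libraries, grouped by step along the horizontal axis; circles are libraries 1 to 3 and triangles libraries 4 to 6 of each genotype. B4galt4, C1galt1c1, Galnt18 and St3gal3, shown for their level per kilobase, overlap between genotypes. The other genes do not, and lack of overlap was part of how they were chosen. The null circles and triangles of Gcnt1 (7.85 and 6.10), B3gnt8 and Fut9 stand apart.

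Across the kept genes, 28 were higher and 10 lower in every pairing of a null set with a wild-type set, and 15 were mixed. One sign thus held in 71.7% of them, beside 67.2% of all genes. The genotypes did not overlap for 29 genes (54.7%, background 44.2%), 20 of them higher in the null (background 21.5%) and 9 lower (background 22.7%). The null sets differed by over 1 in 3 kept genes, Gcnt1, B3gnt8 and Fut9, and the wild-type sets in 1, C1galt1. An unadjusted limma p under 0.05 over set means was met by 23 of the 53 genes and by 5041 of all 16197.

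The filter left out 16 genes. B3gnt4, B3gnt6, Gcnt3, Fut7, Galnt13, Galntl5, Galntl6, St6galnac1 and St8sia5 stayed under 4 in every library, with highest values of 2.73, 3.49, 3.36, 3.94, 3.97, 2.54, 3.01, 2.93 and 3.19 in that order. B3gnt6 is the core 3 synthase, Gcnt3 makes mucin core branches and Fut7 makes sialyl Lewis x. Galnt2, a widely expressed initiation enzyme in many tissues, reached only 4.48, and it shares 114332 bases with the same-strand readthrough gene Gm20388. The part of that overlap in its value was not tested. Gcnt7, St6gal2, St6galnac5 and St8sia3 reached 4.09, 4.22, 4.31 and 4.46.

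St6galnac3, which acts on gangliosides, and Gcnt4, another core 2 enzyme, were high in 1 set. St6galnac3 had a mean of 6.50 in null libraries 1 to 3, against 3.29 in null libraries 4 to 6 and 2.56 and 2.91 in the wild-type sets. Gcnt4 had means of 5.81 and 4.14 in the null sets and 3.68 and 3.59 in wild type. Both were highest in the libraries where seminal vesicle genes made up 16.4% to 16.6% of the level. The part of that tissue in these values was not tested.

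**Figure D4:**
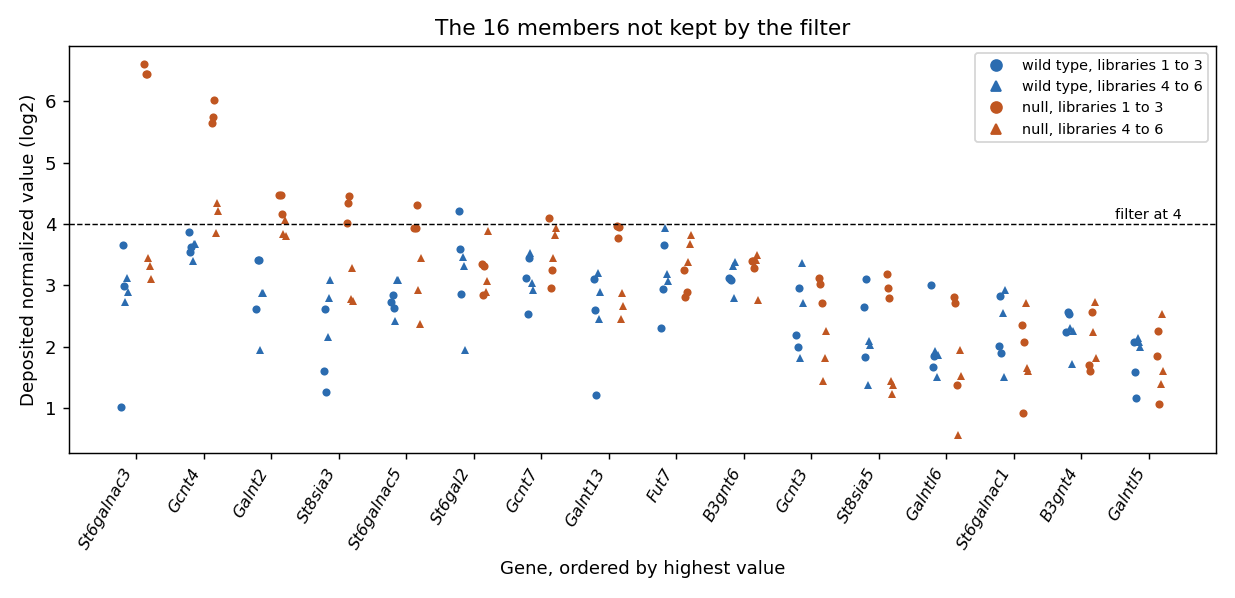
Normalized log2 value (vertical axis) in each library of the 16 glycosyltransferase genes that did not pass the filter, ordered along the horizontal axis by highest value; the dashed line is the value of 4 that had to be met in 6 libraries. St6galnac3 and Gcnt4 exceed 5 in null libraries 1 to 3 alone.

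RefSeq promoter windows (GRCm38.p6) matched 49 of the 69 genes. They are shown for a gene that fell, the gene that rose and the gene with the largest positive difference, each cut to the stretch outside annotated exons. Lower case letters run 5′ to 3′ on the gene's strand, and capitals mark motif matches on either strand. The motifs searched were the TATA box as the letters TATAAA, the CAAT box as the letters CCAAT, the GC box as the letters GGGCGG, and the core of androgen receptor elements as the letters AGAACA.
Fut8, chr12:77238664-77238738, plus strand, inside the gene and upstream of an internal start: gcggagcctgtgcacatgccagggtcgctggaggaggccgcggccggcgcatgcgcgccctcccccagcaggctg
Galnt3, chr2:66124995-66125043, minus strand, directly upstream of the gene: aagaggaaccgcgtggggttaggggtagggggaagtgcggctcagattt
Gcnt1, chr19:17372845-17373094, minus strand, directly upstream of the gene: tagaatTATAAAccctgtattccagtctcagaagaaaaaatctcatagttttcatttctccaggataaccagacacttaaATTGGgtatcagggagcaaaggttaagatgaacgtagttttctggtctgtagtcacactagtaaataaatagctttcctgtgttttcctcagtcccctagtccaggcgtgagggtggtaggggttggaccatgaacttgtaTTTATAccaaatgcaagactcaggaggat
The Gcnt1 window holds TATAAA from base 7, its reverse complement TTTATA from base 222 and ATTGG, the reverse complement of CCAAT, from base 81, and no base lies in more than 1 motif. Of 32851 RefSeq windows of 250 bases, 12.4% hold TATAAA, 33.8% CCAAT, 32.7% GGGCGG and 16.1% AGAACA in either orientation. Neither of the shorter stretches holds any of these letters. In the same 75 bases of other windows as shown for Fut8 the shares were 4.6%, 14.3%, 21.4% and 4.74%, and in the same 49 bases as shown for Galnt3 they were 2.57%, 6.82%, 4.85% and 3.33%. GC content was 77.3% for Fut8, 59.2% for Galnt3 and 40.4% for Gcnt1.

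The genes that feed these enzymes were mostly lower. Of 24 kept genes of sugar nucleotide supply, 16 were lower over the 12 libraries (66.7%, against 31.8% of all genes). Only 2 were higher (8.33%, against 34.1%), and the median was -0.39. Over set means 2 genes passed, both lower (8.33%, against 4.09% of all genes in either direction). Both belong to the fucose branch by their known or proposed roles. Tsta3, the GDP-fucose synthase, had values of 11.70, 11.89 and 12.08 in wild type and 10.15, 10.28 and 10.44 in null libraries and fell by 1.60 (SE 0.21; limma adjusted p = 1.54e-08 and 0.019). Slc35c2, which has been linked to Golgi GDP-fucose supply, fell by 1.27 (SE 0.18; adjusted p = 5.23e-09 and 0.0225). The rest of that branch differed less: the GDP-fucose transporter Slc35c1 by -0.69 (set means 0.0988), Gmds, which acts just before Tsta3, by -0.18 (12 libraries 0.43), and the salvage enzymes Fuk and Fpgt by -0.12 and -0.57. On the sialic acid branch, Nans differed by -0.67 (set means 0.127), Gne by -0.20, Cmas by -0.22 and the transporter Slc35a1 by -0.23. The UDP-galactose transporter Slc35a2 (-0.90) and Gnpnat1 of UDP-N-acetylglucosamine synthesis (-0.57) had the lowest p of the remaining genes and passed over the 12 libraries alone. When libraries were scaled to their totals, 11 of this list were lower, 4 were higher and the median was -0.08, beside 0.37 for all genes.

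Other Golgi glycosyltransferases, of 28 kept, gave 14 higher and 8 lower calls over the 12 libraries, with a median of 0.28. The 14 higher of 28 stand beside 34.1% of all genes, and the lower share, 28.6%, was near the 31.8% of all genes. Over set means 3 were higher and 1 was lower (14.3% in either direction, against 4.09% of all genes). B4galnt2, which makes the Sda epitope on sialylated chains, had values of 6.29, 7.12 and 7.34 in wild type and 10.23, 10.55 and 10.83 in null libraries and rose by 3.57 (SE 0.31; limma adjusted p = 9.68e-09 and 0.00719). B3gat1, which makes the HNK-1 epitope, had values of 2.95, 3.24 and 4.11 in wild type, mostly under the filter value of 4, and 6.16, 6.33 and 6.85 in the null. It rose by 3.0 on this scale (adjusted p over set means 0.017), and it passed the filter through the null libraries. B3galt2, likewise low in wild type (3.33, 4.16 and 4.81), had values of 6.20, 6.49 and 6.98 in the null and rose by 2.37 (0.0278). Mgat4b, an N-glycan branching enzyme, fell by 1.44 (SE 0.18; 0.0161). B3galt4, of ganglioside synthesis, differed by -1.02 (0.0735).

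Golgi structure and transport genes, 35 kept, gave 23 lower and 2 higher calls over the 12 libraries, with a median of -0.34. These calls were 65.7% lower and 5.71% higher, against 31.8% and 34.1% of all genes. Over set means 2.86% passed, against 4.09% of all genes. Copz2, a COPI coat subunit, fell by 1.75 (set means 0.0399) and was the only gene of this list to pass over set means. Gorasp2 (-0.93), Uso1 (-0.81), Cog7 (-0.71) and Cog4 (-0.68), of Golgi stacking and tethering, passed over the 12 libraries alone. Scaling to library totals changed this list to 10 higher and 13 lower with a median of -0.02, and the same scaling moved calls over all genes from 5518 higher and 5152 lower to 8611 and 2608. How far this list and sugar nucleotide supply lay under 0 thus depended on the scaling. The median of all genes moved as well, from 0.05 to 0.37, and both lists stayed under it.

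Of 16 kept genes of glycan trimming and sulfation, 7 were higher and 1 lower over the 12 libraries, with a median of 0.38. The 8 calls among 16 genes were a smaller share than the 65.9% of all genes, and with the set as a random effect 3 were higher and none lower. Neu3, a sialidase of the plasma membrane that acts on gangliosides, had values of 6.93, 7.41 and 8.17 in wild type and 9.75, 10.16 and 10.62 in null libraries and rose by 2.71 (SE 0.39; limma adjusted p = 1.02e-06 and 0.0218). Casd1, a sialic acid O-acetyltransferase (0.55), and Chst2, a sulfotransferase (0.41), passed over the 12 libraries alone. Casd1 gave 0.35 without null libraries 1 to 3, and Chst2 turned to -0.08 with the length trend removed.

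**Figure D5:**
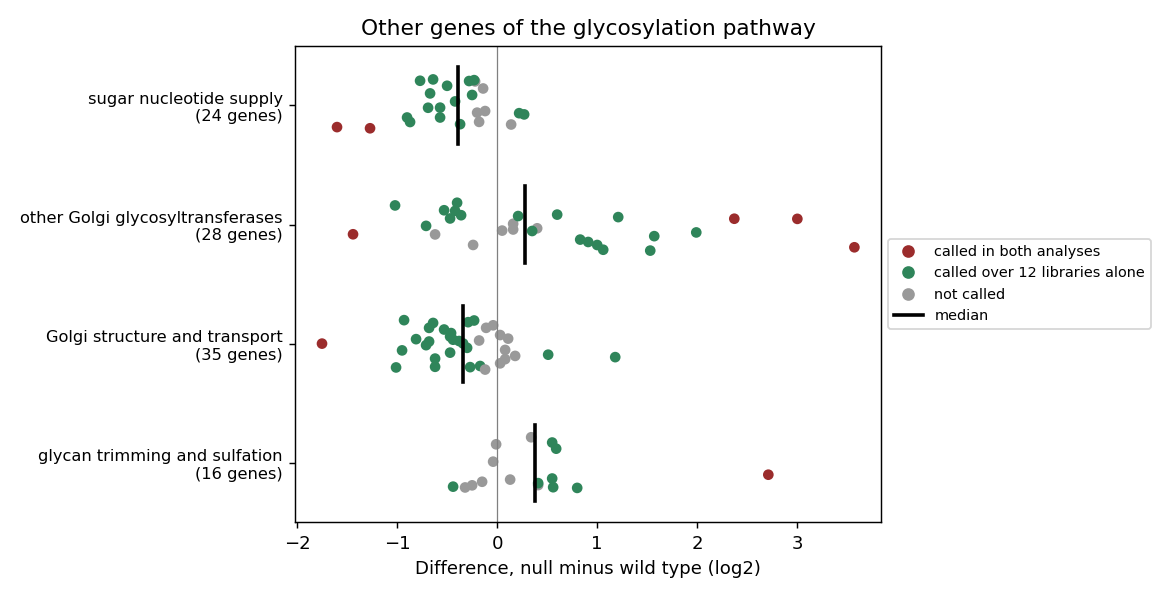
Difference between null and wild type (log2, horizontal axis) of each kept gene in 4 lists of the surrounding pathway, with the median as a black bar; red points passed limma's test over the 12 libraries and over set means, green points over the 12 libraries alone and grey points neither. Sugar nucleotide supply (median -0.39) and Golgi structure (median -0.34) lie mostly left of 0, and B4galnt2 (3.57) is the farthest point to the right.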

How the data were processed

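RNA was selected for poly-A and sequenced on a HiSeq2000 after TruSeq preparation, per the labels' protocols. The authors deposited normalized log2 values for 39179 Ensembl gene IDs. Tools listed in the submitters' processing notes are DESeq, Cufflinks, TopHat and CASAVA 1.8.2, and genome builds listed there are GRCm38.p2 and mm9, none with a stated role. Strand, read layout and multi-mapping are not stated. Low values flatten on this scale, so differences of low genes are understated. Between 11.2 and 12.5 on the log2 scale, values per library fell within 0.1 of whole reads in 100% of cases (20% by chance), which gave estimated totals of 14.8 to 21.7 M reads. For 37693 IDs a symbol was found in GENCODE vM21 (GRCm38).

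Genes at 4 or more in 6 or more of the 12 libraries (16197) were tested by limma's two-sided trend method (version 3.58.1, R 4.3.3) with Benjamini-Hochberg adjustment over all genes and a threshold of 0.05, over the libraries and over 4 means of sets of 3 similar libraries. Clustering of the values gave the sets, and p-values over 12 libraries measure a spread that may be technical. The fits were run on simulated data that held the spread within sets alone. That run cannot check how differences between sets of a genotype affect the p-values over 12 libraries. Shares and rankings within a step are per kilobase of the longest transcript. Marker sums, and the values of Fut1 beside Fut2 and of Bckdha beside B3gnt8, were not adjusted for length. Figures and summaries used Python 3.11.15. Named genes are those called in both tests, then per step the highest per kilobase and up to 3 with the largest difference without overlap, and per pathway list up to 4 with the lowest p plus those called in both. The genes, lists and sets were chosen with earlier results of these data known. Alternatives were other scalings, filters, thresholds and weights, the set as a random effect, and leaving out each library or set. The gene under study and a gene that the naming rule picked are not reported here.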

Additional observations from a re-analysis of the deposited data

Results flagged for a closer look

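The 36 named genes gave 72 groups of 6 libraries. In 1 of these a library stood apart from the rest by Dixon's criterion, and chance alone gives about 1 such group in 20. B3galt4 was at 7.09 in null library 5, against 7.32 in the nearest other null library, a gap of 0.86 of the group's range.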

How the results depend on the processing

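No paired analysis was possible because the libraries are numbered only by order of deposit and the labels link none across genotypes. Of 27 genes higher and 9 lower over the 12 libraries, 12 were higher with the set as a random effect, and 1 was higher and 5 lower over set means, where fewer replicates are tested. Leaving out 1 library gave 26 to 28 higher and 9 to 10 lower. Over set means, the 1 higher call became 11 with scaling to library totals, 4 with totals without the 50 most abundant genes, 2 with upper-quartile centring, 4 with the length trend removed, 2 with no filter, 4 with a filter at 5 and 0 at an adjusted p of 0.01. Over all genes, the 349 higher calls became 1654, 597, 378, 405, 393 and 424 in the same order, up to the filter at 5. Leaving out 1 library gave 0 (without null library 5) to 2. The 5 lower calls became 2 at an adjusted p of 0.01 and 4 to 6 without 1 library. The median of 0.35 became 0.66 with library totals, 0.14 with quantile normalization and 0.21 with the length trend removed, and 0.33 to 0.37 without 1 library. The cause of these shifts was not tested.

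Among the genes picked by the naming rule, signs turned for 3 that had not passed and for Chst2, which had passed over the 12 libraries. C1galt1c1 (-0.11) went to 0.21 with library totals, 0.18 with the length trend removed and 0.14 without null libraries 1 to 3. Galnt18 (-0.20) went to 0.12 and 0.04 under the first and last of these. St3gal3 (-0.07) went to 0.24 with library totals, 0.01 with upper-quartile centring, 0.02 with the length trend removed, 0.05 without wild-type libraries 4 to 6 and 0.28 without null libraries 4 to 6, and ranged from -0.15 to 0.01 without 1 library. Chst2 (0.41) went to -0.08 with the length trend removed. B3galt2 missed the threshold over set means with the length trend removed (1.79, adjusted p = 0.0515). For single genes, 890 of the alternative values over the 12 libraries kept their direction and side of the threshold, 28 were no longer past it, 5 were newly past it and 13 turned. Over set means 260 kept theirs and 6 were no longer past it. Values near the floor of the scale, which include most of those of the 16 genes left out by the filter, were poorly resolved at 14.8 to 21.7 M reads.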
